A study of Mus musculus with 12 samples.

Results

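The 8 genes described here encode the ubiquitous Src family kinases Src, Fyn and Yes1, the Src family kinases Lyn and Fgr of blood cells, the inhibitory kinase Csk, and the focal adhesion kinases Ptk2 and Ptk2b. They were chosen by name: a row of the deposited table belonged to the set where its gene symbol equalled one of these names, which gave 8 of 33188 genes. RNA per gene was read from 12 mouse kidney libraries of wild-type animals, 4 in each of 3 groups. CTL was the control group. HUA received potassium oxonate, which blocks the urate-degrading enzyme uricase, together with hypoxanthine, a purine that is oxidised to urate. XZSW received the same 2 agents and a herbal decoction named Xin-Zi-Sheng-Wan. For strain, age, dose and duration the sources used here give nothing. Nor do the labels tell whether each library is another animal, so p-values rest on a spread between libraries that may be technical only. Columns of the table carry letters that sample descriptions tie to HUA and XZSW, and no other label checks that tie.

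Src family kinases are membrane-anchored tyrosine kinases that act just below integrins, growth factor receptors and immune receptors. Csk phosphorylates a tyrosine in their tail and so locks them in an inactive fold, while phosphatases such as Ptpra remove that phosphate. Focal adhesion kinase, the product of Ptk2, is recruited to clustered integrins and binds Src there, and its relative Pyk2, the product of Ptk2b, responds to calcium as well. These kinases are controlled mainly through phosphorylation, which RNA does not show.

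All 8 genes are protein-coding, and the coordinates are those of the deposited table on GRCm38. Src (ENSMUSG00000027646) lies at chr2:157418444-157471838 on the plus strand, Fyn (ENSMUSG00000019843) at chr10:39368855-39565381 on the plus strand and Yes1 (ENSMUSG00000014932) at chr5:32611171-32687057 on the plus strand. Both kinases of blood cells are on chromosome 4, Lyn (ENSMUSG00000042228) at chr4:3678115-3813122 and Fgr (ENSMUSG00000028874) at chr4:132974095-133001910, each on the plus strand. The other 3 are on minus strands: Csk (ENSMUSG00000032312) at chr9:57626646-57645653, Ptk2 (ENSMUSG00000022607) at chr15:73205102-73423212 and Ptk2b (ENSMUSG00000059456) at chr14:66153257-66281052. The GC content of the longest transcript runs from 41.1% in Yes1 through 45.8% in Lyn, 47.0% in Ptk2, 49.3% in Fyn, 52.3% in Fgr and 54.2% in Ptk2b to 59.3% in Src and 60.1% in Csk. On the opposite strand, 635 exonic bases of Yes1 overlap Gm10461 and 248 of Lyn overlap Gm26857. Libraries were stranded by their protocol, but whether counting used the strand was not given. Gm10461 had 18 to 113 counts per library against 1446 to 3454 for Yes1.

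The 250 bases upstream of the start are printed for Fgr, the member with the widest spread between groups, and for Csk, the kinase that opposes the others. They come from the RefSeq promoter table of GRCm38.p6, which matched 5 of the 8 members; only windows that overlap no annotated exon are shown. The first is chr4:132973845-132974094 on the plus strand. The others are the 2 starts listed for Csk, at chr9:57645654-57645903 and chr9:57653632-57653881 on the minus strand. Capitals mark the letters GAGGAA, the core of sites for PU.1, a transcription factor of myeloid cells, on either strand.
Fgr: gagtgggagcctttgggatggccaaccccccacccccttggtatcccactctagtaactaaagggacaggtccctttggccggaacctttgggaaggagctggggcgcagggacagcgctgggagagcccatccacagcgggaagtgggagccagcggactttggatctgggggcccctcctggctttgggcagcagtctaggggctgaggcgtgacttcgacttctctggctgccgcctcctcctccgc
Csk, near start: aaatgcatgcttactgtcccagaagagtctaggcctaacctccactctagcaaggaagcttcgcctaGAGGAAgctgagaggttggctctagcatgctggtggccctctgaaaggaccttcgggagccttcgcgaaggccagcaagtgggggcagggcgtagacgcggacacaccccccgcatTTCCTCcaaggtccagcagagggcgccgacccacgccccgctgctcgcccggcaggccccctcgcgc
Csk, far start: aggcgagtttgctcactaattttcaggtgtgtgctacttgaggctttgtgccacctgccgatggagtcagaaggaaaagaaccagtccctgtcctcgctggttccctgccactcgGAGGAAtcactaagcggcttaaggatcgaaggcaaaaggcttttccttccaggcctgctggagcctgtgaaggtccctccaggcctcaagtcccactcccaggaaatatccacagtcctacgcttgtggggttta
Besides GAGGAA, 4 more motifs were searched on both strands. The GC box was sought by the letters GGGCGG and the TATA box by the letters TATAAA. The CCAAT box was sought by the letters in its name. The site of AP-1, a stress-responsive factor, was sought by the letters TGANTCA. None of the 5 occurred in the Fgr window, so it has no capitals. GAGGAA occurred 2 times in the near Csk window, with its first bases at -183 and -67 from the start, and 1 time in the far window, at -135. No matches overlapped each other. Of 32851 windows of the same length in the table, 23.3% held GAGGAA, 32.7% the GC box, 12.4% the TATA box, 33.8% the CCAAT box and 6.75% the AP-1 site. The Fgr window was 64.4% G or C with 9 CG dinucleotides, and the near Csk window 64.0% with 16, against medians of 52.4% and 6 over all windows. These matches describe letters only; binding was not measured.

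Library totals were 51.6 to 74.3 M counts. Levels compared between groups are CPM, counts relative to the library total, scaled by TMM, a factor per library that aligns the bulk of the genes, and 19772 genes were tested, all 8 members among them. Some libraries stood apart within their groups, namely HUA2, HUA3, HUA4, XZSW3 and XZSW4. In these, genes rich in G and C read higher relative to the CTL mean. The slope was 0.24 to 0.37 log2 units per 10% of GC content, against -0.06 to 0.08 in the other 7. All CTL libraries are among these 7, in part because the CTL mean is the reference. A fit with this trend as a term and a correction of each library for GC content and gene length were therefore added. They are given beside the calls they end, the signs they turn and the values they move most. Markers of kidney segments were present in every group, but the 6 proximal tubule markers summed to 6459 to 8624 CPM in CTL, 1164 to 4302 in HUA and 6649 to 9362 in XZSW. Of these 6, 4 were called lower in HUA than in CTL and 5 were called higher in XZSW than in HUA, which is the opposite course to Src and Fgr; the part of this shift in the results below was not tested. A tested gene is said to have risen or fallen only at an adjusted p under 0.05 (edgeR quasi-likelihood test, Benjamini-Hochberg over all 19772 genes).

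Per length, on the scale of deposited FPKM (fragments per length and depth), Ptk2b, Csk and Src were the most abundant members in all 3 groups and Fgr the least. In CTL the mean levels were 8.79 FPKM for Ptk2b, 6.78 for Csk, 5.74 for Src, 4.19 for Yes1, 2.16 for Ptk2, 2.05 for Lyn, 1.25 for Fyn and 0.155 for Fgr. Neighbours in this order overlapped for Csk and Src, Src and Yes1, and Ptk2 and Lyn; the other neighbours were apart in all 4 libraries. In HUA the order was Ptk2b at 16.1, Src at 13.7, Csk at 12.5, Yes1 at 4.59, Lyn at 3.79, Ptk2 at 3.24, Fyn at 2.004 and Fgr at 1.51 FPKM. There only Csk and Yes1 were apart, and Fgr was below Fyn in 3 of 4 libraries. In XZSW it was Csk at 9.21, Ptk2b at 8.82, Src at 6.67, Yes1 at 3.44, Lyn at 2.69, Ptk2 at 2.66, Fyn at 2.33 and Fgr at 0.397, with Src apart from Yes1 and Fyn from Fgr. The length behind an FPKM value follows all annotated exons of a gene, 11803 bases for Ptk2 against 3737 to 7508 for the others, which lowers the FPKM of Ptk2.

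**Figure D1:**
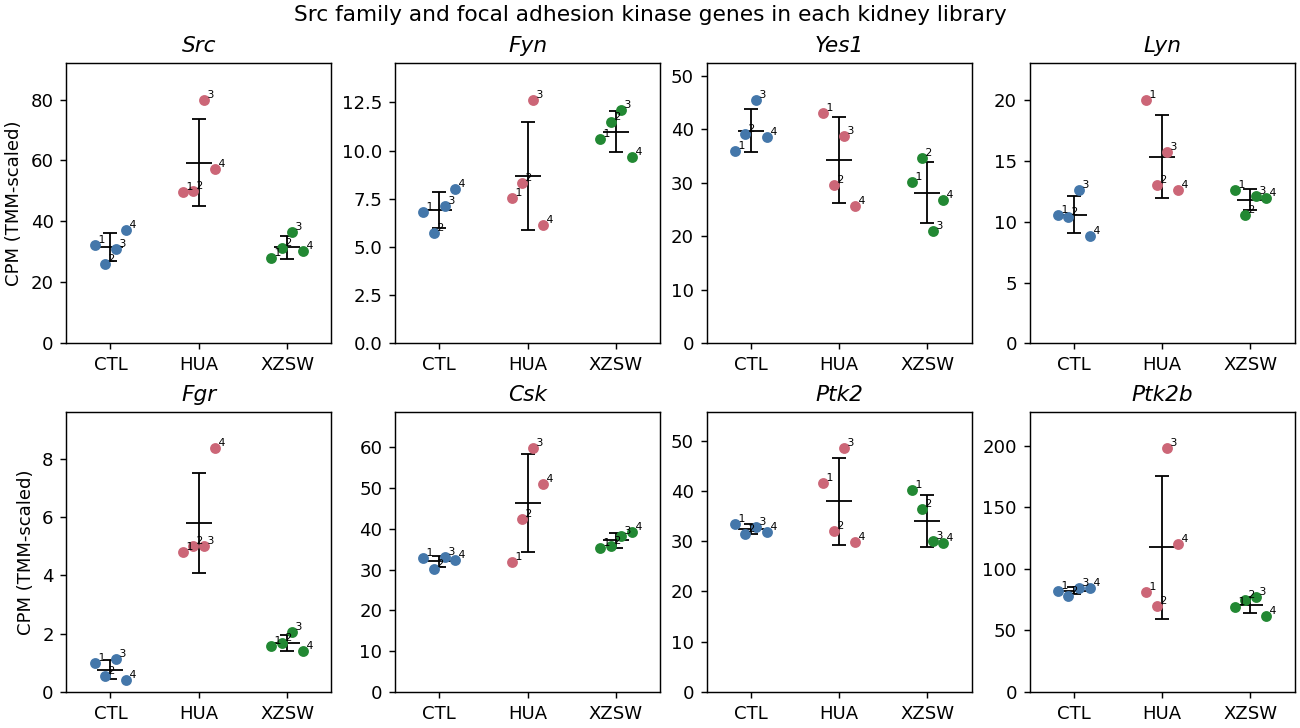
Each panel plots 1 of the 8 kinase genes, with CPM (TMM-scaled, from 0) on the vertical axis and the 3 groups on the horizontal axis; points are libraries and lines with bars are the mean ± SD of 4. The 4 HUA points of Src (49.7 to 80.0 CPM) and of Fgr (4.78 to 8.36 CPM) lie above every CTL and XZSW point of those genes.

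In the first comparison, HUA against CTL, which asks what the hyperuricemia model does, Src, Fgr, Lyn and Csk rose, and none of the 8 fell. That is 4 of 8 called higher, where 14.9% of all tested genes were called higher, 12.8% lower and 27.8% in either direction. For Src, Lyn and Fgr every HUA library was above every CTL library, 3 of 8 where 15.1% of all tested genes were apart in that direction and 15.2% in the other. The median log2 change of the 8 was 0.52, against 0.06 over all tested genes. In the second, XZSW against HUA, which asks what the decoction adds to the model, Src and Fgr fell and none rose. This is 2 of 8 called lower where 8.34% of all tested genes were, 7.09% were called higher and 15.4% in either direction; the same 2 were apart, where 9.08% of all genes were apart that way and 8.98% the other way. The median was -0.35, against 0.01 over all genes. The 2 comparisons share the HUA libraries, so a high HUA value raises the first change and lowers the second. In XZSW against CTL 0 of 8 were called by edgeR, where 4.99% of all tested genes were, 2.72% higher and 2.27% lower. At an unadjusted p under 0.05 there were 2 higher, Fyn and Fgr, and 1 lower, Yes1. DESeq2 called 2 of them higher, Fyn and Fgr, and limma on log2(FPKM + 1) called 1, Fyn. For the other directions without a call, HUA below CTL and XZSW above HUA, 0 members had an unadjusted p under 0.05, and DESeq2 and limma called 0. In bulk tissue, fewer cells of a type and less RNA per cell cannot be told apart, which holds for every change below.

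**Figure D2:**
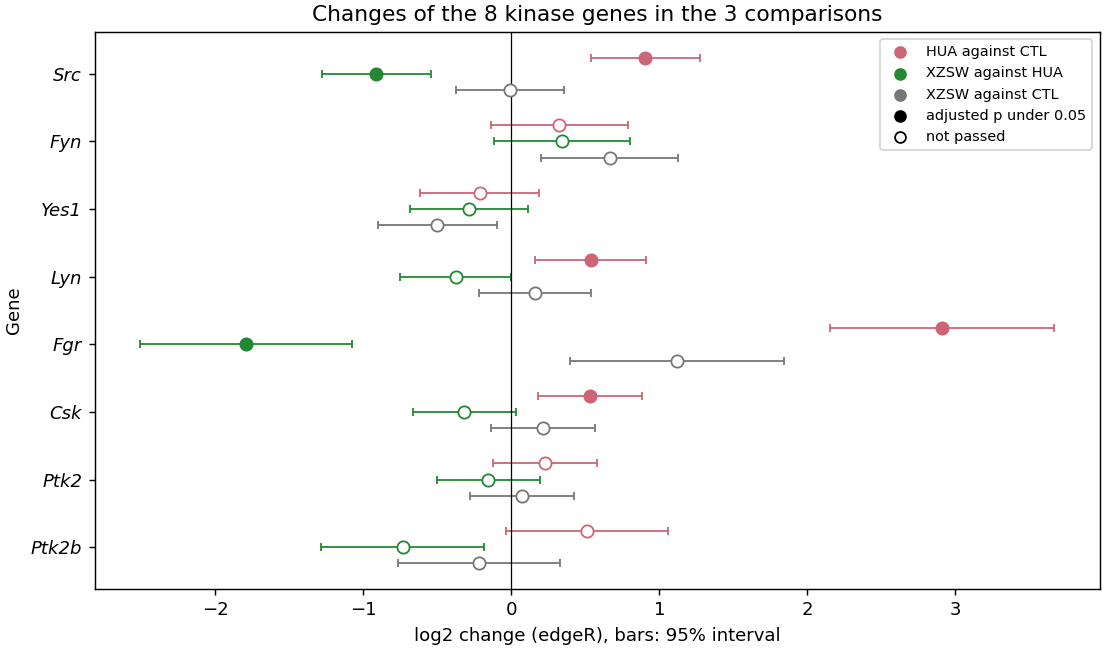
Log2 changes of the 8 kinase genes (horizontal axis) in the 3 comparisons, with the 95% interval of the edgeR fit; filled points passed at an adjusted p under 0.05. Fgr has the largest change in HUA against CTL, 2.91, and Src and Fgr are the filled points of XZSW against HUA.

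Src encodes the founding member of the family, present in most cells and abundant in epithelia. In CTL1 to CTL4 it measured 32.4, 26.02, 30.9 and 37.2 CPM, in HUA1 to HUA4 49.7, 50.1, 80.0 and 57.3, and in XZSW1 to XZSW4 27.9, 31.2, 36.5 and 30.1. HUA was above both other groups in every library, HUA3 most, and CTL and XZSW overlapped. The mean rose from 31.6 ± 4.58 to 59.3 ± 14.2 CPM (SD, n = 4), a log2 change of 0.91 ± 0.17 (SE; edgeR adjusted p = 0.00195). With the decoction it was 31.5 ± 3.66 CPM, a log2 change of -0.91 ± 0.17 from HUA (edgeR adjusted p = 0.00461). XZSW and CTL differed by -0.01, with a 95% interval of -0.37 to 0.36. Src is rich in G and C, and the rise over CTL was 0.72 with the GC trend as a term (adjusted p = 0.0216) and 0.52 after correction of each library (adjusted p = 0.0105). Both calls held with each library left out in turn. The fall was -0.85 and -0.79 in those GC fits, and within libraries of 1 kind the log2 ratio of XZSW to HUA was -0.91 with the trend (3 HUA, 2 XZSW libraries) and -0.75 without (1 and 2).

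Fyn encodes a kinase of neurons, T cells and many other cells, and in podocytes it phosphorylates nephrin. It measured 6.81, 5.73, 7.13 and 8.03 CPM in the CTL libraries, 7.56, 8.35, 12.6 and 6.14 in HUA, and 10.6, 11.5, 12.1 and 9.69 in XZSW. HUA overlapped both other groups, and every XZSW library was above every CTL library. The log2 difference of XZSW from CTL was 0.67 ± 0.21 (edgeR adjusted p = 0.0862), and other settings placed it on either side of the threshold, with adjusted p from 0.0193 to 0.217. HUA against CTL did not pass, but did with library totals, at 0.65 (adjusted p = 0.0383). Beside this, the summed CPM of 5 podocyte markers was 153 to 191 in CTL, 142 to 323 in HUA and 262 to 366 in XZSW. Of these 5, 3 were called higher in HUA against CTL and 3 in XZSW against CTL, where 14.9% and 2.72% of all tested genes were. The summed CPM of 7 endothelial markers was 141 to 178 in CTL, 70.6 to 202 in HUA and 153 to 245 in XZSW. Of these 7, 1 fell in HUA against CTL and none passed in XZSW against CTL. The 8 T and NK cell markers summed to 3.35 to 7.21 CPM in CTL, 1.79 to 6.46 in HUA and 5.04 to 16.4 in XZSW, and none of the 7 tested passed in XZSW against CTL. Their part in the Fyn values was not tested.

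Yes1 encodes the third ubiquitous kinase of the family. Its CTL libraries had 35.9, 39.0, 45.5 and 38.6 CPM, the HUA libraries 43.0, 29.5, 38.8 and 25.7, and the XZSW libraries 30.1, 34.6, 21.1 and 26.7. It was the one member with a lower mean in HUA than in CTL, and the groups overlapped; XZSW was below CTL in all 4 libraries. Neither difference passed, with log2 values of -0.21 ± 0.19 for HUA (edgeR adjusted p = 0.43) and -0.50 ± 0.19 for XZSW (adjusted p = 0.13) against CTL. The sign of the first turned with scaling by library totals and with the GC trend as a term, each giving 0.11, and was kept after GC correction, at -0.16. HUA1, XZSW1 and XZSW2, the highest of their groups, are the libraries of those groups without the GC trend and with the steepest length slopes. The part of either in the Yes1 values was not tested.

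Lyn encodes a kinase of B cells and myeloid cells that can both start and restrain receptor signals, and it is also found in epithelia. Values were 10.5, 10.4, 12.6 and 8.85 CPM in CTL, 20.04, 13.0, 15.7 and 12.6 in HUA, and 12.7, 10.6, 12.1 and 11.97 in XZSW. The lowest HUA library, HUA4, was only just above the highest CTL library, CTL3. The mean rose from 10.6 ± 1.54 to 15.3 ± 3.42 CPM, a log2 change of 0.54 ± 0.17 (edgeR adjusted p = 0.0356). The call was lost without CTL1, CTL2, CTL4, HUA1 or HUA3, at adjusted p from 0.0572 to 0.103, and in a fit on the 8 libraries of the comparison (adjusted p = 0.055), and was kept with both GC settings. XZSW had 11.8 ± 0.896 CPM and overlapped HUA, and its difference did not pass (log2 -0.38, edgeR adjusted p = 0.167).

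Fgr encodes a kinase of neutrophils, monocytes and macrophages that acts below Fc receptors and integrins. Its CTL libraries had 0.980, 0.555, 1.12 and 0.419 CPM (25 to 53 counts), its HUA libraries 4.78, 4.99, 5.01 and 8.36, and its XZSW libraries 1.58, 1.67, 2.04 and 1.39. The 3 groups did not overlap: HUA was highest, CTL lowest and XZSW between. The mean rose 7.53-fold from 0.769 ± 0.335 to 5.78 ± 1.72 CPM, a log2 change of 2.91 ± 0.35 (edgeR adjusted p = 0.000128). In XZSW it was 3.46-fold lower than in HUA, at 1.67 ± 0.273 CPM, a log2 change of -1.79 ± 0.33 (edgeR adjusted p = 0.00448). XZSW was higher than CTL by 1.12 ± 0.34, which did not pass (edgeR adjusted p = 0.0693). Both calls held with each library left out in turn and with both GC settings, where the rise was 2.76 and 2.75 and the fall -1.73 and -1.76.

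Markers of myeloid cells differed between the same groups. Of 12 macrophage markers, 10 rose in HUA against CTL. In XZSW against HUA 4 fell and 8 did not pass, and none was at 0 in any group. Their summed level was 76.2 to 132 CPM in CTL, 345 to 466 in HUA and 95.6 to 267 in XZSW. Cd14 weighs heavily in this sum, with means of 5.34 CPM in CTL, 134 in HUA and 12.5 in XZSW. Csf1r had 46.3, 52.1 and 49.3 CPM in the same order and passed in no comparison. The median log2 change of the 12, which no single level can dominate, was 2.23 in HUA against CTL. It was -0.78 in XZSW against HUA and 1.39 in XZSW against CTL. Whether the sum measures macrophage number was not tested. Within XZSW these sums were 124 and 95.6 in the first 2 libraries and 240 and 267 in the others, whereas Fgr was 1.58 and 1.67 in the first 2 and 2.04 and 1.39 in the others. The 7 neutrophil markers summed to 1.05 to 3.50 CPM in CTL, 1.52 to 12.5 in HUA and 2.51 to 8.05 in XZSW. Of 5 tested, 2 rose in HUA against CTL, S100a9 and Ly6g, and none passed in the other comparisons. Ly6g was at 0 in all CTL libraries, and Mpo, which was not tested, at 0 in all HUA libraries. HUA4, the library highest for Fgr, was the lowest HUA library for both sums, at 345 and 1.52 CPM. The 6 markers of injured tubule, such as Havcr1 and Lcn2, all rose in HUA and all fell in XZSW, from 372 to 422 CPM through 3532 to 9525 to 775 to 1022. The 6 B and plasma cell markers summed to 14.2 to 39.4 CPM in CTL, 3.47 to 13.3 in HUA and 13.9 to 31.5 in XZSW, with HUA lowest, where Lyn was highest. What share of the Fgr and Lyn changes goes with any of these cell types was not tested.

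**Figure D3:**
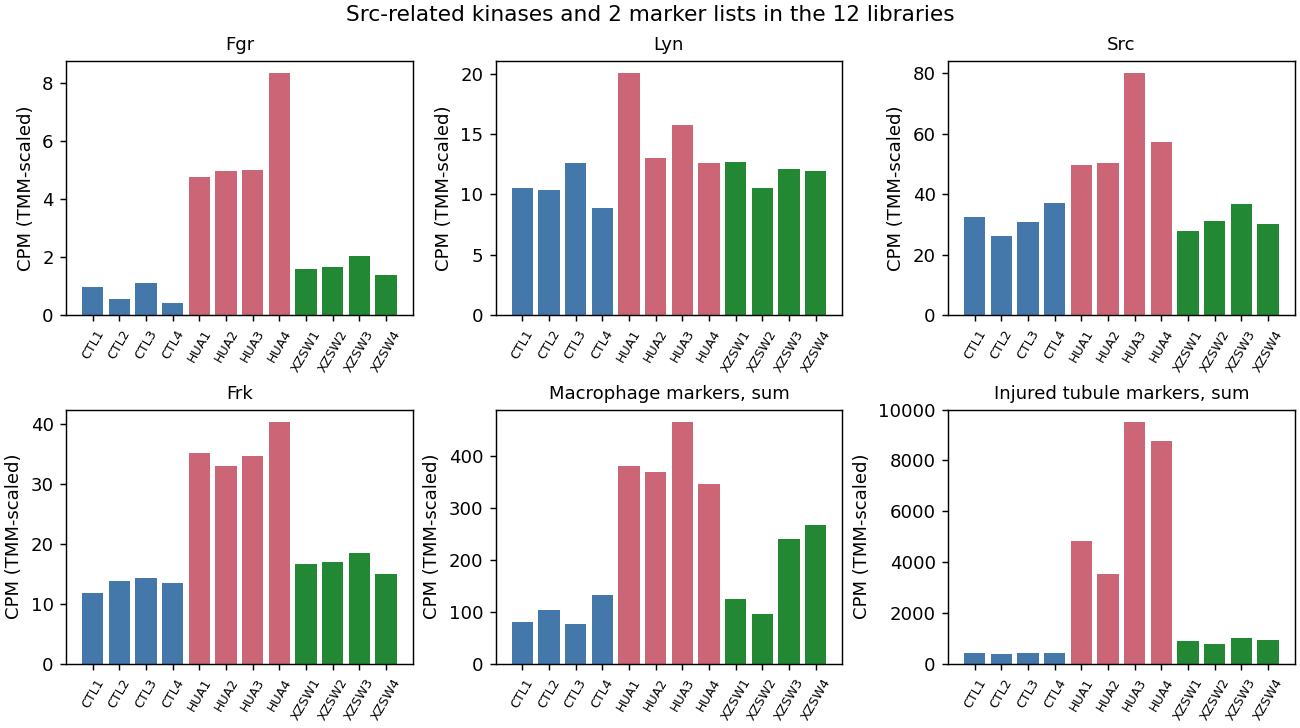
Bars give the TMM-scaled CPM (vertical axis) of Fgr, Lyn, Src and Frk and the summed CPM of the macrophage and injured tubule markers in each of the 12 libraries (horizontal axis), coloured by group. The macrophage sum, in which Cd14 weighs heavily, spans 345 to 466 CPM in HUA against 76.2 to 132 in CTL. HUA4 is the highest library for Fgr but the lowest HUA library for this sum.

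Csk, the brake of the family, measured 32.7, 30.1, 33.1 and 32.3 CPM in CTL, 31.8, 42.5, 59.8 and 51.1 in HUA, and 35.4, 35.8, 38.3 and 39.2 in XZSW. HUA2, HUA3 and HUA4 were above all CTL libraries and HUA1 was inside their range; XZSW was just above CTL in all 4, a log2 difference of 0.21 that became -0.05 after GC correction. The mean rose from 32.1 ± 1.34 to 46.3 ± 11.98 CPM, a log2 change of 0.53 ± 0.16 (edgeR adjusted p = 0.027). That call did not hold with the GC trend: the change was 0.24 with the trend as a term (adjusted p = 0.338) and 0.12 after correction (adjusted p = 0.495). It was also lost without any one of the CTL libraries, HUA3 or HUA4, at adjusted p from 0.054 to 0.0759. XZSW against HUA did not pass (log2 -0.32, edgeR adjusted p = 0.211), and passed without HUA1 (adjusted p = 0.0201).

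Ptk2 encodes focal adhesion kinase itself. It had 33.4, 31.4, 32.9 and 31.8 CPM in CTL, 41.5, 32.0, 48.5 and 29.8 in HUA, and 40.2, 36.4, 30.05 and 29.6 in XZSW. All 3 groups overlapped, and CTL had the narrowest spread. The log2 differences were 0.23 for HUA against CTL, with a 95% interval of -0.12 to 0.58, and -0.16 for XZSW against HUA, with an interval of -0.51 to 0.19 (edgeR adjusted p = 0.328 and 0.573). Without HUA3 they were 0.12 and -0.03. The first was 0.44 with the GC trend as a term (adjusted p = 0.0974) and 0.14 after GC correction, and it passed with library totals (adjusted p = 0.0175) and with limma on log2(FPKM + 1) and log2(FPKM + 0.1) (adjusted p = 0.0379 and 0.0336).

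Ptk2b, the gene of Pyk2, had 82.0, 77.9, 84.4 and 84.3 CPM in CTL, 81.0, 69.9, 198 and 121 in HUA, and 69.0, 74.3, 77.1 and 61.8 in XZSW. HUA3 and HUA4 were above every other library, HUA1 and HUA2 were not, and XZSW was below CTL in all 4. The HUA mean of 117 ± 57.9 CPM therefore rests on 2 libraries, and neither change passed: 0.51 ± 0.25 against CTL (edgeR adjusted p = 0.154) and -0.73 ± 0.25 for XZSW against HUA (adjusted p = 0.0693). Without HUA3 they were 0.18 and -0.38, and without HUA2 they passed, at 0.73 (adjusted p = 0.0325) and -0.93 (adjusted p = 0.015). The second also passed without HUA1, at -0.89 (adjusted p = 0.0289), with DESeq2 (adjusted p = 0.0291) and with library totals (adjusted p = 0.0309). The first passed with library totals (adjusted p = 0.0238) and both limma fits (adjusted p = 0.0455 and 0.0403), and was 0.31 and 0.28 in the GC fits, where it did not pass.

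In XZSW against CTL the libraries were apart upward for Fyn, Fgr and Csk and downward for Yes1 and Ptk2b, where 10.3% and 11.3% of all tested genes were apart in those directions. None of these 5 differences passed the test of edgeR, and the remaining 3 genes, Src, Lyn and Ptk2, overlapped.

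Ratios of FPKM within a library do not depend on its scaling. Src to Csk, kinase to brake, was 0.847, 0.740, 0.799 and 0.986 in CTL, 1.34, 1.01, 1.14 and 0.959 in HUA, and 0.675, 0.746, 0.816 and 0.659 in XZSW. XZSW lay below every HUA library, and CTL and HUA overlapped through CTL4 and HUA4. Ptk2b to Ptk2 was 3.92 to 4.24 in CTL, 3.12, 3.50, 6.52 and 6.47 in HUA, and 2.74 to 4.10 in XZSW. HUA split into 2 libraries below CTL and 2 above it. The 5 Src family members summed to 11.3 to 14.8 FPKM in CTL, 21.7 to 32.4 in HUA and 14.8 to 16.8 in XZSW. Unlike the ratios, this sum depends on library scaling, and FPKM is not TMM-scaled. With limma on log2(FPKM + 0.1) the median of all genes shifted by 0.31 in HUA against CTL and by 0.21 in XZSW against CTL. The groups are therefore not compared by this sum. Within this sum Src held 42.7 ± 4.32% in CTL, 53.2 ± 5.62% in HUA and 42.8 ± 3.81% in XZSW (SD, n = 4). The share of Yes1 was 28.8 to 34.3% in CTL and lower in every library of HUA, at 14.7 to 22.9%, and of XZSW, at 16.1 to 26.5%. Fyn held 13.9 to 15.9% in XZSW, above every CTL library (8.62 to 10.4%) and every HUA library (6.05 to 9.20%). Fgr held 0.593 to 1.58% in CTL, 4.10 to 9.32% in HUA and 2.23 to 3.01% in XZSW, and Lyn overlapped throughout. These values are descriptions; members of different GC content shift against each other in libraries with the GC trend.

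**Figure D4:**
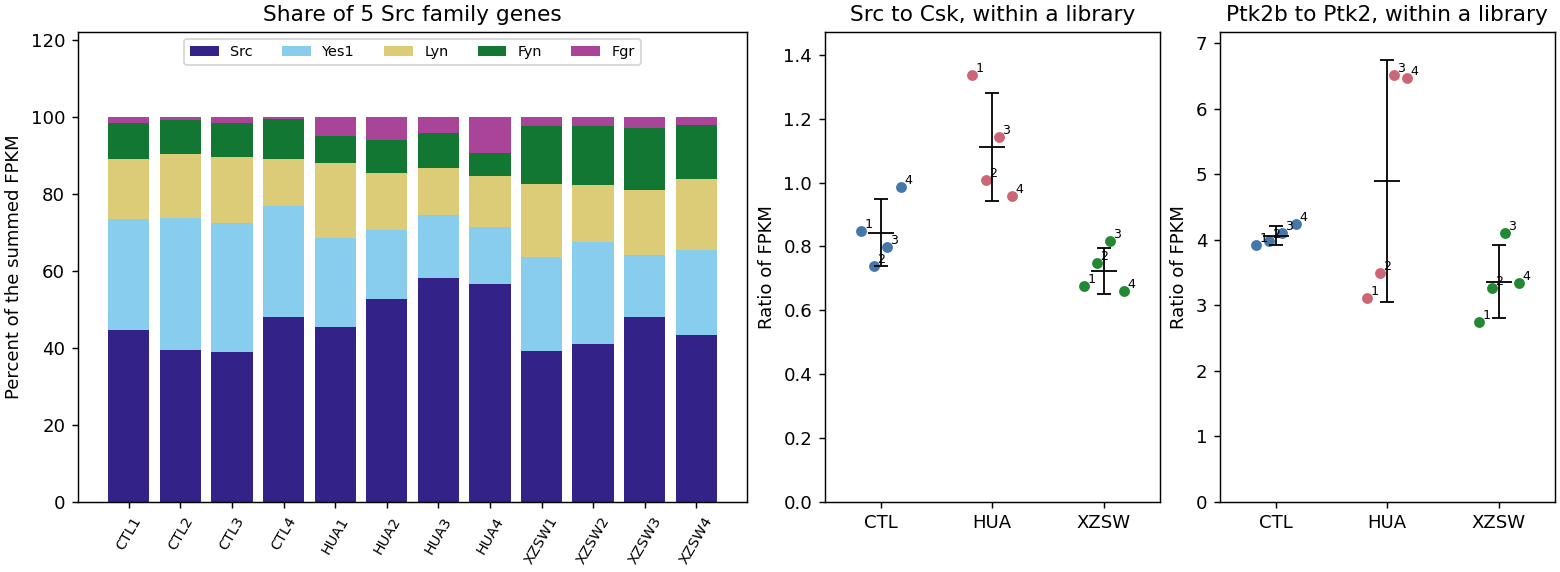
The left panel stacks the percent share of each of the 5 Src family genes in their summed FPKM for the 12 libraries; the other panels plot FPKM ratios within each library, Src to Csk and Ptk2b to Ptk2, as points with the mean ± SD of 4. Fyn has its highest shares in XZSW (13.9 to 15.9%) and Yes1 in CTL (28.8 to 34.3%).

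Around these kinases 81 genes in 5 lists were followed, of which 79 were tested: 34 rose and 3 fell in HUA against CTL, 1 rose and 19 fell in XZSW against HUA, and 8 rose and 1 fell in XZSW against CTL. Of all tested genes, as given above, 14.9% were called higher and 12.8% lower in the first, 7.09% and 8.34% in the second, and 2.72% and 2.27% in the third. The list genes had median log2 changes of 0.51, -0.32 and 0.15, against 0.06, 0.01 and 0.04 over all tested genes. Apart from Ctnnb1, the genes named below had the smallest p of their list in HUA against CTL, at most 3 per list. Their small p-values in that comparison follow from this choice. Because XZSW against HUA shares the HUA libraries, the choice also favours a fall there after a rise. The changes that follow are on the log2 scale unless given as a level. Among other Src-related kinases, Frk, an epithelial relative, went from 13.3 ± 1.08 to 35.8 ± 3.19 CPM (log2 1.43, edgeR adjusted p = 2.16e-05) and was 16.8 ± 1.40 CPM in XZSW (log2 -1.09 from HUA, adjusted p = 0.000391). Lck, a T-cell kinase, did not pass (log2 0.84, adjusted p = 0.162).

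Among 17 brakes and phosphatases, 4 rose and 1 fell in HUA (median 0.40), and 2 fell in XZSW against HUA, a share close to that of all tested genes. Ptpn2, a phosphatase of Jak and Src family kinases, rose by 0.68 (edgeR adjusted p = 0.00184) and fell by 1.00 with the decoction (adjusted p = 0.000621). Ptpra, the phosphatase that opens Src, fell by 0.50 in HUA (adjusted p = 0.0153), a call lost without CTL1, HUA3 or HUA4, at adjusted p from 0.0517 to 0.06, and with the GC trend as a term (adjusted p = 0.0573). It was -0.17 with library totals (adjusted p = 0.344), and -0.13 and -0.15 in the limma fits (adjusted p = 0.413 and 0.41). Ptpn12, which acts on focal adhesion proteins, rose by 0.98 (adjusted p = 0.0274), a call lost without CTL1, CTL2, CTL3 or HUA3, at adjusted p from 0.0691 to 0.0849.

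Of 27 substrates and adaptors 8 rose and 1 fell in HUA (median 0.41), and 8 fell in XZSW against HUA (median -0.34). Tgfb1i1, the focal adhesion adaptor Hic-5, rose by 1.86 (edgeR adjusted p = 0.000186) and fell by 1.53 (adjusted p = 0.00166). Stat3, a transcription factor that Src can phosphorylate, rose by 1.38 (adjusted p = 0.00176) and fell by 1.20 (adjusted p = 0.00818). The adaptor Shc1 rose by 0.66 (adjusted p = 0.00121) and fell by 0.52 (adjusted p = 0.0102), the latter at adjusted p = 0.0507 in the fit on 8 libraries. Ctnnb1, the gene of beta-catenin and a target of Src kinases named here outside the rule and after its values were seen, was at 0.39 in HUA (adjusted p = 0.0521) and fell by 0.56 in XZSW against HUA (adjusted p = 0.0178).

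Of 17 upstream receptors 10 rose in HUA (median 0.95) and 7 fell in XZSW against HUA (median -0.52). Cd44, the hyaluronan and osteopontin receptor, went from 3.82 ± 1.56 to 43.4 ± 23.5 CPM (log2 3.50, edgeR adjusted p = 6.89e-05) and to 6.36 ± 1.51 CPM in XZSW (log2 -2.77, adjusted p = 0.000752). The integrin subunit gene Itga3 rose by 2.01 (adjusted p = 0.000225) and fell by 1.42 (adjusted p = 0.00397). Itga5, of the fibronectin receptor, rose by 1.75 (adjusted p = 0.000615); its fall of 0.88 (adjusted p = 0.0388) was lost without HUA3, where it was -0.49, or without any one XZSW library. It was also lost with the GC term (adjusted p = 0.0662), the fit on 8 libraries (0.0935) and no filter (0.059).

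Of 13 myeloid receptors and adaptors 10 rose and 1 fell in HUA (median 1.87), 1 rose and 1 fell in XZSW against HUA, and 5 rose in XZSW against CTL (median 1.12). Sirpa, an inhibitory receptor of myeloid cells, rose 4.01-fold (edgeR adjusted p = 3.81e-05), fell by 0.91 on the log2 scale with the decoction (adjusted p = 0.00788) and was above CTL by 1.09 log2 units in XZSW (adjusted p = 0.0138). Itgam, the CD11b integrin subunit, rose by 4.08 (adjusted p = 0.000432) and was at -1.01 in XZSW against HUA (adjusted p = 0.208), which passed without HUA4 (-1.36, adjusted p = 0.0373). Fcgr1, an Fc receptor, rose by 2.53 (adjusted p = 0.00169) and was at -0.73 in XZSW against HUA (adjusted p = 0.287). Against CTL the XZSW libraries were higher by 3.06 for Itgam (adjusted p = 0.0158) and 1.79 for Fcgr1 (adjusted p = 0.0414). These calls in XZSW against CTL were each lost without at least 1 library: without CTL2 for Sirpa (adjusted p = 0.0538), CTL2 or CTL3 for Itgam (0.0553 and 0.0573), and all but CTL4 for Fcgr1 (0.0601 to 0.117). Fcgr1 was also lost with the GC term (adjusted p = 0.0596), no filter (0.0651) and limma on log2(FPKM + 1) (0.0794), and Itgam with that limma fit (0.126).

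**Figure D5:**
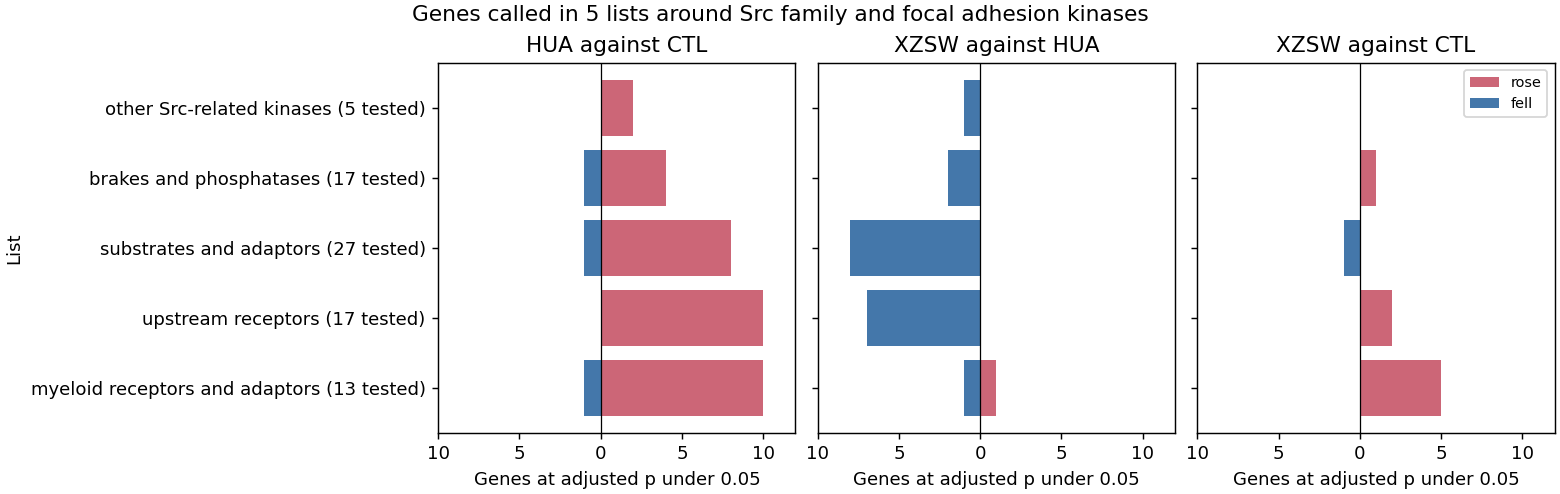
Bars count the genes of each pathway list that rose (to the right of 0) or fell (to the left) at an adjusted p under 0.05, with 1 panel per comparison. In HUA against CTL 10 of 17 upstream receptors and 10 of 13 myeloid genes rose, where 14.9% of all tested genes were called higher. In XZSW against HUA 7 of 17 upstream receptors fell, and of 13 myeloid genes 1 fell and 1 rose. Of all tested genes, 8.34% were called lower and 7.09% higher there.

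The genes whose levels ran most like a member were found by Pearson's r of log2(CPM + 1) over the 12 libraries, among 10780 tested genes with a mean of at least 5 CPM (10781 for Fgr). For Fgr the first was Frk (r = 0.97), followed by Clu and Cdh3 (both 0.96); Clu is on the list of injured tubule markers. For Src they were Tnfaip1 (0.98), Cdc42se2 (0.98) and Calm2 (0.98), and for Yes1 Rab6a (0.97), Dhx15 (0.95) and Pum2 (0.94). Lyn ran most like Rab33b (0.94) and Ptk2 like Arhgap21 (0.96), Trio (0.94) and Afdn (0.93). Ptk2b ran most like Cct3 (0.96) and Csk like Psd3 (0.97) among genes with a common name. Fyn had the lowest best value, 0.89 with Dll4. Among the members themselves, Src and Fgr were at 0.83, Src and Csk at 0.80, Src and Ptk2b at 0.79, and Src and Yes1 at -0.01. These 12 points share their 3 groups and their library properties, so the values describe likeness in this set of libraries.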

How the data were processed

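Kidney RNA of 12 mouse libraries was analysed, 4 per group. The authors deposited 1 table that pairs raw counts with FPKM for each gene and library, per the file headers. Per the submitters' processing notes, cutadapt 1.9, HISAT2 2.2.1 and the build GRCm38 were used. How reads were counted, with which strand setting, annotation and filter, is not given in the sources used here. Column letters C, N and M were matched to CTL, HUA and XZSW through the sample descriptions. Replicate libraries differed beyond counting error, and none was a duplicate.

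Genes were kept by filterByExpr and scaled by TMM, with factors of 0.856 to 1.15. The test was the quasi-likelihood test of edgeR 4.0.16 over all 12 libraries, with Benjamini-Hochberg adjustment over 19772 genes; a call is an adjusted p under 0.05. Standard errors come from the F statistic. With 51.6 to 74.3 M counts per library the spread between libraries, not counting, limits precision. The deposited FPKM values followed the counts, with a median coefficient of variation of 0.0389% over 10504 genes. They were used to set genes side by side and in the limma alternatives. Fits were tested on simulated data, with 50 genes changed in HUA at each size. Calls were made for 2 of 50 at 1.5-fold, 22 at 2-fold, 41 at 4-fold and 47 at 8-fold, with 2 false calls. Far fewer genes were changed in the simulation than the 27.8% called in HUA against CTL, which makes the adjustment of p stricter there. These shares are therefore not the rates of the fits reported here. A change near 1.5-fold that did not pass is still not shown to be absent. Alternatives were other filters, scalings, DESeq2 1.42.0, limma 3.58.1 on log2(FPKM + 1) and log2(FPKM + 0.1), fits on 8 libraries, each library left out in turn and a replicate block; the GC trend fits were added after the data were seen. R 4.3.3, Python 3.11.15, numpy 2.4.6, pandas 2.3.3 and matplotlib 3.10.9 were used.

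Members, gene lists and markers were chosen with earlier results of these data known. Named genes were the 8 members, the 3 genes of each list with the smallest p in HUA against CTL, and the 3 genes most like each member among genes with a mean of at least 5 CPM and no predicted-gene name; exceptions are said to be such. 1 gene that this rule names is not reported here.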

Additional observations from a re-analysis of the deposited data

Results flagged for a closer look

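The Fgr value of HUA4, 8.36 CPM, lay far from the other 3 HUA libraries, which had 4.78 to 5.01 CPM. Its gap to the nearest of them was 0.937 of the whole range of the group, above the limit of Dixon's ratio for 4 values. Of 30 groups of 4 libraries examined in this way, this was the only one past the limit, and chance alone places about 1 in 20 groups past it. Both Fgr calls held without HUA4.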

How the results depend on the processing

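Of 456 refits of a member's log2 change, 421 stayed on the same side of the threshold, 14 lost a call and 21 gained one. The calls of Src and Fgr in HUA against CTL and in XZSW against HUA held in all 19 alternatives of each, with adjusted p up to 0.0216 and 0.0221 for Src and 0.00132 and 0.0159 for Fgr (edgeR, DESeq2 or limma). Ratios and shares per length moved by less than 1 SD with TMM-scaled counts per length of exons. That outcome was nearly fixed, because library scaling cancels within a library. The lengths behind FPKM were also 1.11 to 1.12 times the exonic lengths for all 8 members. It is therefore no check of these ratios. In HUA against CTL, scaling by library totals, which shifts the median of all genes by 0.33, called 7 members higher instead of 4 and split all calls into 5779 higher and 1320 lower, against 2950 and 2538; it shifts the other comparisons by -0.17 and 0.16. Leaving out each library in turn gave 2 to 5 members called higher there, with 2 without CTL1, CTL2, CTL4 or HUA3, and 2 to 4 called lower in XZSW against HUA, with 4 without HUA1. In XZSW against CTL, with 0 members called higher, library totals, DESeq2 and limma on log2(FPKM + 0.1) called 2, and limma on log2(FPKM + 1) and the fit on 8 libraries called 1; library totals called 14 genes of the pathway lists against 9. Over all genes, XZSW against HUA had 3051 calls, 1439 with 8 libraries and 1711 to 3817 with 1 library left out. XZSW against CTL had 987 calls, 529 without a filter, 2417 with DESeq2, 2625 with 8 libraries, 1750 with the GC term, 1744 with limma on log2(FPKM + 0.1), and 133 to 699 with 1 library left out. The causes were not tested.

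With the replicate number as a block, the count of members called stayed at 4 higher in HUA against CTL and 2 lower in XZSW against HUA, and Src changed by 0.88 (edgeR adjusted p = 0.002) in the first. Among named list genes, Ptpn12 in HUA against CTL (edgeR adjusted p = 0.0584), the fall of Itga5 in XZSW against HUA (0.0522) and Fcgr1 in XZSW against CTL (0.0679) lost their calls with the block. All calls numbered 5466, 3076 and 813 with the block, against 5488, 3051 and 987. Deviations of same-numbered libraries correlated at -0.05 to 0.16, 1 of 12 pairs over 0.1, so the numbers were not taken to pair samples.

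Fgr rests on 25 to 53 counts per CTL library, where depth limits its precision most.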
